A study of Mus musculus with 2 samples.

Results

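The genes of cholesterol synthesis and homeostasis were followed in single cells of mouse liver tumours, 30 of the 32285 genes in the count tables. They are a list of gene names drawn up with earlier results of these data known, and all 30 were found in both tables. The list holds 18 genes of synthesis, the control genes Srebf2, Insig1, Insig2 and Scap, the ester and transport genes Soat1, Stard4, Npc1 and Npc2, and the efflux genes Abca1, Abcg1, Nr1h2 and Nr1h3. Tumours came from Crtc2+/+ and Crtc2-/- mice, and each genotype gave 1 library. Crtc2 encodes a coactivator of CREB, the transcription factor that answers cyclic AMP. Every mouse had received the liver carcinogen diethylnitrosamine (DEN) by intraperitoneal injection, at 25 mg/kg and 2 weeks of age, followed by a diet that causes non-alcoholic steatohepatitis (NASH) from week 8 to week 26, so both libraries share carcinogen and diet and no untreated liver was compared. The sources used here do not give the deletion, the strain or the number of animals and tumours behind each library, and genotype cannot be told apart from animal, tumour or preparation. With 1 library per genotype no test was made, and all intervals are exact 95% intervals that cover counting error only.

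Cells build cholesterol from acetyl-CoA through mevalonate, isoprenoid diphosphates, squalene and lanosterol. When membrane cholesterol in the endoplasmic reticulum is low, SCAP escorts the transcription factor SREBP2, the product of Srebf2, to the Golgi for cleavage, and the freed part switches on nearly the whole synthesis pathway, whereas INSIG proteins hold the complex back when sterols are plentiful. Oxysterols that build up with cholesterol activate the liver X receptors (LXR, genes Nr1h3 and Nr1h2), which raise efflux through ABCA1 and ABCG1. The liver is the main organ of cholesterol synthesis and export, and Kupffer cells, its resident macrophages, depend on LXR alpha for their identity.

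Levels were read in 9 gates of cells set by transcript counts, as counts of unique molecular identifiers (UMIs) per 1000000 UMIs of the gate (CPM). Hepatocytes carried at least 20 UMIs of Alb, Apoa1 and Ttr in sum and were divided at 4 UMIs of Krt8 and Krt18 into a Krt-high and a Krt-low gate. Endothelial cells had at least 3 UMIs of Ptprb and Stab2, and macrophages at least 20 of C1qa, C1qb and C1qc, with Kupffer cells holding at least 3 of Cd5l, Vsig4 and Clec4f. Sox5 myeloid cells had at least 2 UMIs of Sox5 and 5 of Tyrobp, Fcer1g and Lyz2, mature dendritic cells (DC) at least 1 each of Ccr7 and Fscn1, T cells at least 2 of the Cd3 genes, and B cells at least 2 of Cd79a and Cd79b. Filters left 9349 cells in the Crtc2+/+ library, at a median of 7115 UMIs, and 8901 in the Crtc2-/- library, at 6560 UMIs. The libraries shared 29 barcodes. Cells that met the gates of different lineages (3.81% and 8.68%) were left out, as were cells in both the macrophage and mature DC gates. Cells in both the Sox5 and macrophage gates went to Sox5. These rules together left 201 of 537 Crtc2-/- Kupffer cells, against 30 of 41 in the Crtc2+/+ library. The share of each rule was not counted. Cell numbers, Crtc2+/+ first, were 151 and 131 in the Krt-high gate, 72 and 54 in the Krt-low gate, 203 and 497 endothelial cells, 4542 and 426 non-Kupffer macrophages, 80 and 645 Sox5 myeloid cells, 42 and 59 mature DC, 1857 and 2496 T cells, and 527 and 1173 B cells. In the hepatocyte gates of both libraries all 5 markers outside the gate (Apob, Fgb, Serpina1c, Cps1, Ahsg) exceeded 10 CPM. In the other gates all markers of the type did so too, except 1 of the 7 Kupffer markers in the Crtc2+/+ library. These lists include genes used to set the gates (Cd3e, Cd79a, C1qa, Cd5l, Vsig4 and Clec4f), so those genes are no separate check.

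Crtc2 itself gave 615 UMIs in the Crtc2+/+ and 400 UMIs in the Crtc2-/- library, or 7.96 CPM (interval 7.34 to 8.61) and 5.43 CPM (4.91 to 5.99). In the Krt-high gate it stood at 10.7 and 3.06 CPM, from 16 and 6 UMIs, with intervals that overlapped. Endothelial cells gave 9.54 and 8.49 CPM, also with overlap, and T cells 9.82 and 4.81 CPM, without overlap. B cells gave 13.4 CPM (8.82 to 19.5) and 3.39 CPM (2.10 to 5.18), also without overlap. In the remaining gates the intervals overlapped. No ratio interval is given for Crtc2, and overlap of separate intervals does not show that levels are alike. Over all kept cells the Crtc2 transcript was therefore lower but present in the library labelled Crtc2-/-. The libraries count 3′ ends, and the place of the deletion is unknown here, so this count neither checks nor contradicts the label, and the genotype names below are those of the labels.

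Promoters were examined because synthesis genes stood higher together in the hepatocyte gates of the Crtc2-/- library, as described below. RefSeq promoters of 300 bases (250 before to 50 after the start, GRCm38.p6) were found for 24 of the 30 genes, 31 promoters in all, and Fdps, Fdft1, Sqle, Stard4, Npc1 and Abcg1 had none. Stretches of 150 bases that end before the annotated start are shown, for 4 enzymes and for Srebf2. Each is written 5′ to 3′ in the direction of its gene, and capitals mark TCACNCCAC, a core of the sterol regulatory element that SREBP binds, and CCAAT or its complement ATTGG, the box bound by NF-Y. They lie upstream of their genes at chr13:119690201-119690350 (plus strand) for Hmgcs1, chr5:114444119-114444268 (plus) for Mvk, chr8:122443423-122443572 (minus) for Mvd, chrX:72918371-72918520 (plus) for Nsdhl and chr15:82147031-82147180 (plus) for Srebf2.
Hmgcs1: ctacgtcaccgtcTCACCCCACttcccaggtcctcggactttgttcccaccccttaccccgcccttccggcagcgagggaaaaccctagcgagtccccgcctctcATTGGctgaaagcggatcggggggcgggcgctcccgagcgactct
Mvk: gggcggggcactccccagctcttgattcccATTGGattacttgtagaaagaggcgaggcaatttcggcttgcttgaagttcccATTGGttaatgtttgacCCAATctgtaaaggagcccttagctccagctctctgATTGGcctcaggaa
Mvd: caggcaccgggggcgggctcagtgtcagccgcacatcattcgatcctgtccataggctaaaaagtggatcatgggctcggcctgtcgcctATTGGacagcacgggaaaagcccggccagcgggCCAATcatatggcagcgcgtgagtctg
Nsdhl: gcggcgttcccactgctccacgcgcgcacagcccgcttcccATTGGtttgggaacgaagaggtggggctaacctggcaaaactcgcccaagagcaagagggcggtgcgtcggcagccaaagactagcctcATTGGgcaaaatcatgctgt
Srebf2: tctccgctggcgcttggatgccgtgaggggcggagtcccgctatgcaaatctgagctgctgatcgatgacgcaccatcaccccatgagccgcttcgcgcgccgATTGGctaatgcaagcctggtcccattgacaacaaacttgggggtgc

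A gene was counted where any of its promoters held a motif on either strand. CCAAT was held by 19 of the 24 genes (79.2%) and by 41.1% of the 27025 genes of the RefSeq table, counted the same way over promoters of the same length. Among synthesis genes 14 of 15 held it. The stretch of Mvk shows 4 copies, those of Mvd and Nsdhl 2 each, and those of Hmgcs1 and Srebf2 1 each. TCACNCCAC occurred in 1 of the 24 genes, Hmgcs1, and in 1.44% of all genes. The cAMP response element TGACGTCA, the site of CREB, occurred in none of the 24 and in 2.03% of all genes. Its shorter part TGACG, which every TGACGTCA also contains, occurred in 11 of the 24 (45.8%) and in 23.0% of all genes. DR4, the direct repeat bound by LXR, occurred in none of the 24 and in 0.0148% of all genes. These are matches of letters, and no binding was measured.

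In the Krt-high hepatocyte gate most of the synthesis pathway stood higher in the Crtc2-/- library, from the first steps to the demethylation of lanosterol. The 18 synthesis genes together gave 579 CPM in the Crtc2+/+ and 1582 CPM in the Crtc2-/- library, a ratio of 2.73. Log2 ratios were taken after adding 10 CPM, which understates changes of low genes, over genes with at least 20 UMIs in both libraries together, and 1.5-fold served as a rule of size. In this gate 11.3% of all genes passing that filter were at least 1.5-fold higher and 17.0% at least 1.5-fold lower in Crtc2-/- cells. All 30 genes passed it, and 19 were higher and 1 lower by that rule. Of the 18 synthesis genes 14 were higher and none lower, with a median log2 ratio of 0.86 against -0.09 over all genes of the gate.

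The largest differences lay in 3 genes of the early and isoprenoid steps, while other genes of these steps differed less. Hmgcs1, which makes HMG-CoA, gave 31.3 CPM (interval 23.0 to 41.7) in the Crtc2+/+ and 204 CPM (185 to 225) in the Crtc2-/- library, 6.52 times as much (4.81 to 9.02). Idi1, the isopentenyl diphosphate isomerase, gave 16.0 and 143 CPM, 8.93 times as much (5.88 to 14.2). Fdps, which builds farnesyl diphosphate, gave 66.0 and 346 CPM, 5.24 times as much (4.24 to 6.54). These 3 genes had the widest gaps between libraries, and none of their intervals overlapped. The mevalonate kinases and decarboxylase were lower in level: Mvk stood at 8.66 and 30.6 CPM, Pmvk at 36.0 and 70.4 CPM, and Mvd at 6.0 and 24.5 CPM. Acat2, the cytosolic thiolase that starts the pathway, stood at 21.3 and 39.8 CPM.

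Past farnesyl diphosphate the difference was smaller at squalene and larger again at lanosterol. Fdft1, squalene synthase, stood at 54.0 and 97.5 CPM, and Sqle, squalene epoxidase, at 29.3 and 60.7 CPM. Lss, lanosterol synthase, rested on 10 and 40 UMIs, 6.66 and 20.4 CPM. Cyp51, which removes a methyl group from lanosterol, reached 20 and 76.0 CPM, 3.8 times as much (2.56 to 5.83). Msmo1, a sterol methyl oxidase, reached 23.3 and 116 CPM, 4.97 times as much (3.47 to 7.31), and Nsdhl, which acts with it, 14.0 and 60.7 CPM, 4.34 times as much (2.71 to 7.27). Hsd17b7, a ketoreductase of the same steps, stood at 10.0 and 26.0 CPM. The 4 synthesis genes short of 1.5-fold on this scale act late in the pathway: Ebp, a sterol isomerase (log2 ratio -0.17), Sc5d, a desaturase (0.45), Dhcr7, a reductase of the last steps (0.53), and Lbr, a sterol reductase that is also the lamin B receptor of the nuclear envelope (-0.33).

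**Figure D1:**
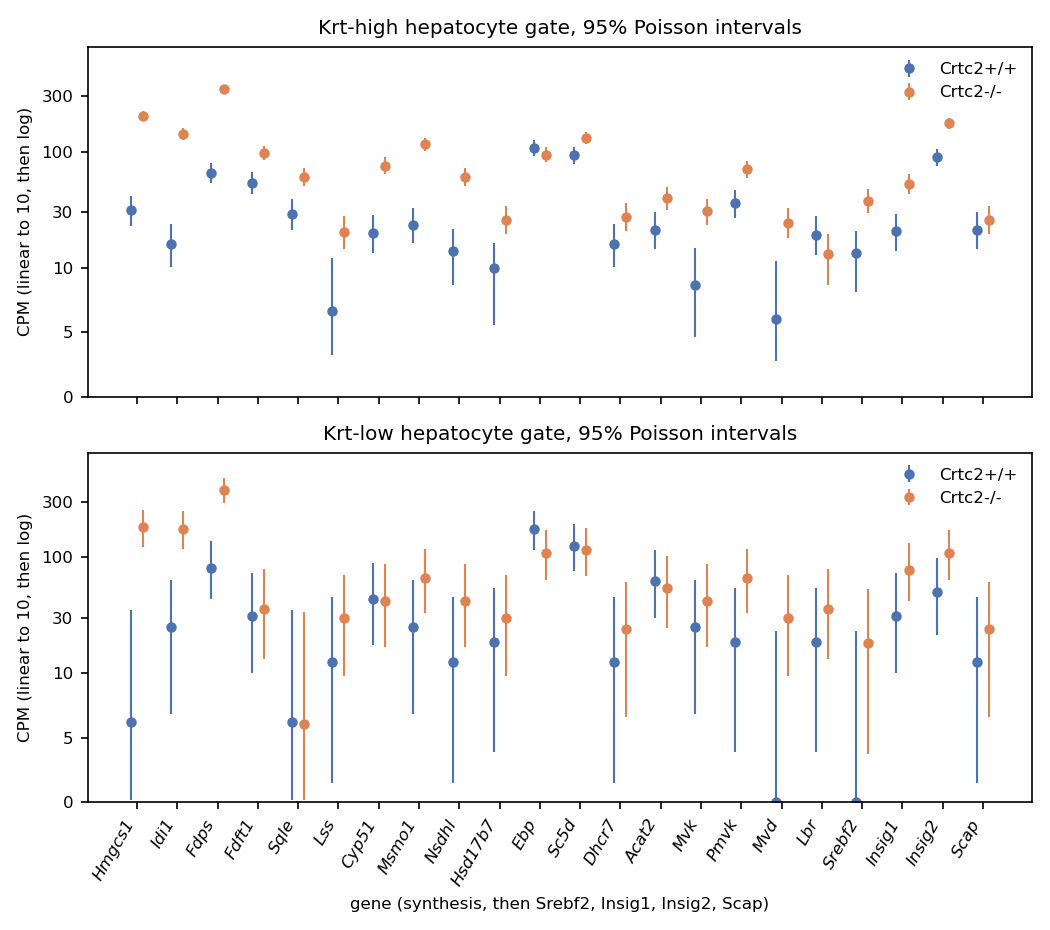
CPM (vertical axis, linear to 10 and logarithmic above) of the 18 synthesis genes and of Srebf2, Insig1, Insig2 and Scap in the Krt-high (top) and Krt-low (bottom) hepatocyte gates, 1 point per library with its 95% Poisson interval. In the Krt-high gate Hmgcs1, Idi1 and Fdps lie at 204, 143 and 346 CPM in the Crtc2-/- library and at 31.3, 16.0 and 66.0 CPM in the Crtc2+/+ library.

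The control genes were higher in the same cells with 1 exception. Srebf2 gave 13.3 CPM (interval 8.14 to 20.6) and 37.8 CPM (29.6 to 47.4), 2.83 times as much (1.71 to 4.90). Insig1, both a brake on SREBP and its target, gave 20.7 and 53.1 CPM, and Insig2 89.3 and 176 CPM. Scap stood at 21.3 and 26.0 CPM, with intervals that overlapped. Among ester and transport genes, Stard4, a carrier of cholesterol between membranes, gave 30 and 54.1 CPM, and Npc2, which hands cholesterol out of lysosomes, 126 and 190 CPM, a log2 ratio of 0.56. Soat1, which esterifies cholesterol, was the gene below the rule, at 11.3 and 4.08 CPM from 17 and 8 UMIs. Its direction turned with gates set on counts scaled to 5000 UMIs per cell (log2 ratio 0.061) and among cells high in biliary markers (0.21). Nr1h3 stood at 36.7 and 73.0 CPM and Nr1h2 at 46.0 and 28.6 CPM. Abca1 differed little, at 99.96 and 106 CPM, and Abcg1 lay below 10 CPM in both libraries.

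The higher sum was carried unevenly by the cells. UMIs of the 18 synthesis genes per 10000 UMIs of a cell had a median of 5.20 over Crtc2+/+ and 8.27 over Crtc2-/- Krt-high cells, and the 95th percentile stood at 15.8 and 45.1. The 10% of cells with the most synthesis UMIs held 24.4% of all synthesis UMIs of the gate in the Crtc2+/+ and 52.0% in the Crtc2-/- library. Median depth also differed, at 9362 and 14197 UMIs per cell. Across cells with at least 5000 UMIs, the summed share of Hmgcs1, Idi1 and Fdps and that of the other 15 synthesis genes had a Spearman correlation of 0.225 over 113 Crtc2+/+ cells and 0.532 over 110 Crtc2-/- cells, as a description of cells that share a library and a depth range. In T cells the same correlation was 0.0125 over 769 and 0.0667 over 1049 cells. In mature DC it was 0.520 over 32 Crtc2+/+ and 0.736 over 52 Crtc2-/- cells, so it was not particular to the Krt-high gate.

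**Figure D2:**
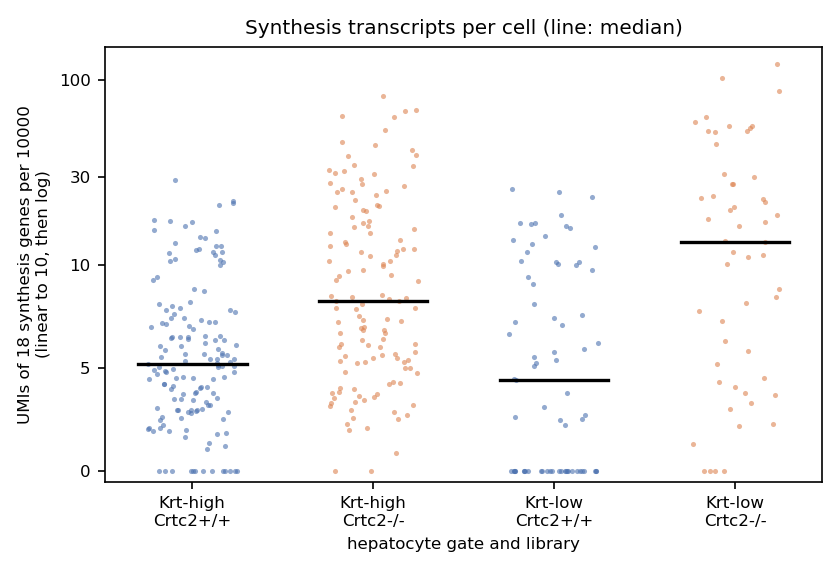
UMIs of the 18 synthesis genes per 10000 UMIs (vertical axis, linear to 10 and logarithmic above) in each cell of the hepatocyte gates, by gate and library. Each point is a cell and each line the median, 5.20 and 8.27 in the Krt-high gate and 4.45 and 13.4 in the Krt-low gate, Crtc2+/+ first.

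The make-up of the Krt-high gate differed between libraries. Cholangiocyte markers (Krt19, Krt7, Sox9, Spp1; 4 of 4 detected in both) summed to 41102 CPM in the Crtc2+/+ and 8273 CPM in the Crtc2-/- library, hepatocyte markers to 6921 and 12848 CPM, and the median mitochondrial share was 4.46% and 1.67%. The gate therefore held biliary transcripts as well, and its name here says only how it was drawn. Cells with at least 20 UMIs of Spp1, Krt19, Krt7, Sox9 and Epcam per 10000 made up 74.8% and 42.7% of it. The median log2 ratio of the synthesis genes was 1.12 over the 38 and 75 cells below that limit, 1.03 over the 113 and 56 cells at or above it, 1.49 over the 46 and 82 cells with at least 100 UMIs of Alb, Apoa1 and Ttr per 10000, and 0.92 over the 127 and 78 cells with a mitochondrial share of at least 1%. In that order 21 of 26, 13 of 28, 24 of 27 and 18 of 30 listed genes that passed the filter were at least 1.5-fold higher. Of all genes that passed the filter in each class, 39.0%, 12.9%, 42.3% and 13.6% were so. These classes were chosen after the data were seen, their medians are not centred on all genes, and the part of the gate's make-up was not tested further. Hmgcs1 gave 34.7 and 317 CPM in cells low in biliary markers. It gave 30.9 and 101 CPM in cells high in them, 3.28 times as much, and 33.0 and 106 CPM with the mitochondrial limit, 3.22 times, against 6.52 times over the whole gate. Cells with a mitochondrial share under 1% made up 15.9% and 40.5% of the gate, and the cells above that limit held 46 of the 47 Crtc2+/+ but 142 of the 400 Crtc2-/- UMIs of Hmgcs1. Cells that met both limits numbered 19 and 26, under the minimum of 30, so both at once were not tested.

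The Krt-low gate was small and shallow, with a median of 1720.5 and 1722.5 UMIs per cell and 159604 and 165573 UMIs in all. In it 30.2% of genes passing the filter were higher and 23.6% lower by 1.5-fold, and 6 of the 9 genes of the list that passed were higher and 1 lower. Only 5 of the 18 synthesis genes passed, 3 of them mainly through the Crtc2-/- library, so their median stands for no more than themselves. Summed over all 18, synthesis genes gave 702 and 1468 CPM. Fdps gave 81.5 CPM (interval 43.4 to 139) and 380 CPM (292 to 487), from 13 and 63 UMIs. Hmgcs1 was counted 1 and 30 times, 6.27 CPM (0.159 to 34.9) and 181 CPM (122 to 259), and Idi1 4 and 29 times, 25.1 and 175 CPM. Ebp, with 28 and 18 UMIs, stood at 175 and 109 CPM with overlapping intervals. Per cell the synthesis genes had medians of 4.45 and 13.4 UMIs per 10000, and 4 and 8 of the cells had at least 5000 UMIs. The 10% of cells with the most synthesis UMIs held 49.1% and 28.4% of them, the reverse order of the Krt-high gate. The median mitochondrial share was 8.28% and 0.230%, and cells under 1% made up 20.8% and 59.3%. Only 22 Crtc2-/- cells lay at or above 1%, so the part of mitochondrial share in this gate was not tested. Cholangiocyte markers summed to 2707 and 1643 CPM there. Soat1 (25.1 and 96.6 CPM, 4 and 16 UMIs) and Npc2 (200.5 and 374 CPM) stood higher in Crtc2-/- cells of this gate, but Npc2 was lower (log2 ratio -0.84) where cells meeting another lineage's gate were kept, and Soat1 turned below 0 (-1.44) with scaled gates. Leukocyte markers differed in this gate too: those of monocytes summed to 576 and 1915 CPM, of neutrophils to 777 and 42.3 CPM, of macrophages to 307 and 211 CPM and of NK cells to 6.27 and 169 CPM. Their part in the values of Soat1 and Npc2 was not tested.

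Within a library, 55.0% of all genes were at least 1.5-fold higher in the Krt-high than in the Krt-low gate of the Crtc2+/+ library and 35.8% in the Crtc2-/- library, and 10.2% and 10.3% were lower, so single genes are read against a large shift. Sqle stood higher in the Krt-high gate of both libraries (log2 ratios 1.27 and 2.14), as did Fdft1 (0.63 and 1.22), Srebf2 (1.22 and 0.76), Insig2 (0.72 and 0.64) and Npc1 (0.73 and 0.86). Npc2 (-0.63 and -0.94) and Soat1 (-0.72 and -2.92) stood lower in both. In the Crtc2+/+ library all but Npc2 rest on under 10 UMIs in the Krt-low gate, where Srebf2 was counted 0 times, and only the interval of Npc2 left out 1 there. Srebf2 turned to -0.11 with scaled gates, Fdft1 to -0.082 after centring on the median of all genes, and Npc2 and Soat1 to 0.10 and 0.36 with a mean over cells, all in the Crtc2+/+ library.

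Outside the hepatocyte gates the summed synthesis levels of the libraries lay closer together. Their summed levels were 237 and 249 CPM in endothelial cells, 244 and 272 CPM in Kupffer cells, 247 and 275.3 CPM in non-Kupffer macrophages, 295 and 317 CPM in Sox5 myeloid cells, 325 and 360 CPM in T cells, 279 and 331 CPM in B cells and 787 and 928 CPM in mature DC. Median log2 ratios of the synthesis genes passing the filter lay between -0.03 in Sox5 myeloid cells and 0.20 in B cells, though that of mature DC ran from -0.12 to 0.64 over the alternatives tried. RNA of hepatocytes free in the suspension, read from Alb, amounted to between 0.157% and 1.33% of the UMIs of these gates.

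**Figure D3:**
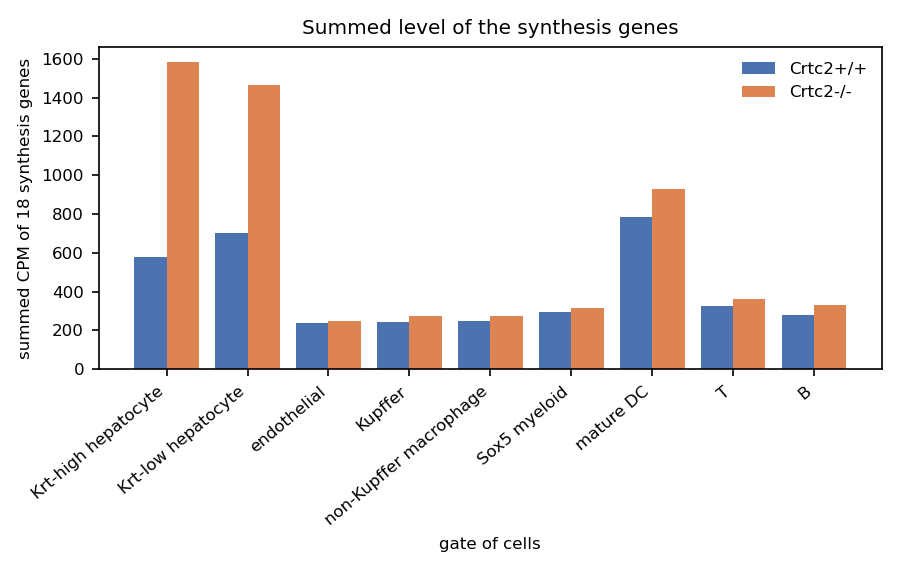
Summed CPM of the 18 synthesis genes (vertical axis) in each gate (horizontal axis), 1 bar per library, without replicates. The bars of the Krt-high gate stand at 579 and 1582 CPM and those of T cells at 325 and 360 CPM.

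Mature DC, the Ccr7 and Fscn1 bearing cells that carry antigen to lymph nodes, had high levels of some synthesis genes in both libraries and low levels of others. In the Crtc2+/+ library this gate was the highest of the 9 for 8 of the 30 genes. Hmgcs1 stood at 152 CPM in it (interval 113 to 201) against 31.3 CPM in the next gate, Idi1 at 128 against 25.1 CPM, and Mvd at 37.3 against 6.87 CPM, with intervals that did not overlap. Srebf2 was also highest there, at 121 CPM, the next being B cells at 72.9 CPM. In the Crtc2-/- library mature DC was the highest gate for 5 genes, with Idi1 at 271 CPM, Pmvk at 149 CPM, Mvd at 36.1 CPM, Srebf2 at 111 CPM and Npc2 at 1403 CPM. For Mvd, Srebf2 and Idi1 the interval of the next gate overlapped. Hmgcs1, at 103 CPM in mature DC, was highest in the Krt-high gate there, at 204 CPM. Mature DC was also the lowest of the 9 gates in both libraries for Ebp (12.4 and 25.1 CPM), Lbr (15.6 and 12.5 CPM), Insig2, Scap and Dhcr7, the last counted 0 times in each, which allows up to 11.48 and 5.78 CPM. For each of these genes the interval in at least 1 library reached the level of another gate.

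Between libraries the genes of this list differed in both directions in mature DC. In this gate 8.55% of all genes were higher and 14.0% lower by 1.5-fold, and 6 of the 16 genes of the list that passed were higher and 1 lower. Idi1 gave 128 and 271 CPM, 2.13 times as much (1.51 to 3.07), Pmvk 65.3 and 149 CPM, 2.28 times (1.41 to 3.85), Npc2 896 and 1403 CPM, and Abcg1 168 and 268 CPM, the last level (log2 ratio -0.015) with a mean over cells in place of a sum. Cyp51 was lower, at 118 CPM (83.7 to 162) and 54.9 CPM (38.2 to 76.3), 0.464 times (0.285 to 0.755). Hmgcs1, at 152 and 103 CPM, had a ratio interval from 0.462 to 1.003. Between 42 and 59 cells, the 10% with the most synthesis UMIs held 47.8% and 48.0% of them. Macrophage markers summed to 146 and 34 CPM in this gate and T cell markers to 488 and 315 CPM.

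**Figure D4:**
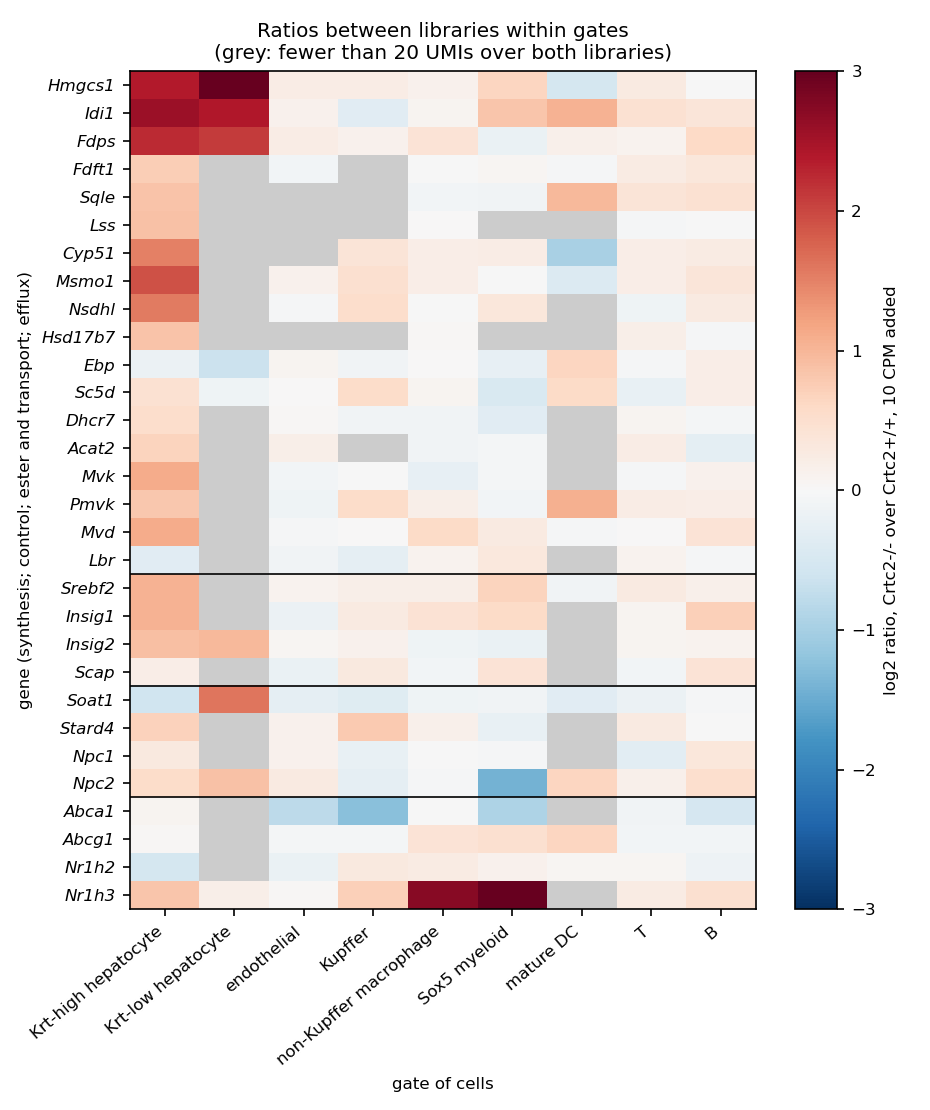
Log2 ratio of Crtc2-/- over Crtc2+/+ after adding 10 CPM (colour, ending at 3 in either direction) for the 30 genes (rows, by role) in the 9 gates (columns), with grey where both libraries together held fewer than 20 UMIs. Of the 18 synthesis genes 14 are at least 1.5-fold higher in the Krt-high column, and none of the 30 genes passes that size in the T cell column.

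The LXR alpha gene Nr1h3 differed most in non-Kupffer macrophages and Sox5 myeloid cells. Non-Kupffer macrophages gave 13.9 CPM (interval 12.8 to 15.0) in the Crtc2+/+ and 147 CPM (137 to 159) in the Crtc2-/- library, 10.6 times as much (9.54 to 11.9). Sox5 myeloid cells gave 25.6 CPM (16.4 to 38.0) and 465 CPM (448 to 483), 18.2 times as much (12.2 to 28.4). Kupffer cells gave 214 CPM (173 to 260) and 355 CPM (333 to 377), 1.66 times as much (1.35 to 2.07). In the Crtc2+/+ library Kupffer cells were the highest gate for Nr1h3, the next lying at 62.7 CPM, and in the Crtc2-/- library Sox5 myeloid cells came first and Kupffer cells second. Nr1h2, the LXR beta gene, was even by comparison, at 25.3 and 31.6 CPM in non-Kupffer macrophages and 34.1 and 38.6 CPM in Sox5 myeloid cells. By the rule of size, 4.16% of all genes were higher and 3.74% lower in non-Kupffer macrophages, where Nr1h3 alone of the 30 genes was higher and none lower. The make-up of this gate also differed between libraries. Monocyte markers summed to 487 and 1467 CPM, mature DC markers to 68.1 and 191 CPM and macrophage markers to 8111 and 6099 CPM. The part of this make-up in the Nr1h3 values was not tested.

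Kupffer cell transcripts were higher in the Crtc2-/- library in non-Kupffer macrophages and Sox5 myeloid cells, but not only there. The 7 Kupffer markers (Timd4, Marco, Fcna, Slc40a1, Cd5l, Vsig4, Clec4f) summed to 16 and 201 CPM in non-Kupffer macrophages and to 6 and 253 CPM in Sox5 myeloid cells. They also summed to 56.7 and 175 CPM in endothelial cells, 1.27 and 15.5 CPM in T cells and 0.496 and 18.9 CPM in B cells. In mature DC they were level, at 18.7 and 18.8 CPM. Free Kupffer cell RNA was not estimated, so its part was not tested. In the non-Kupffer macrophages without a single UMI of Cd5l, Vsig4 or Clec4f, 4457 and 353 cells, Nr1h3 still stood at 13.6 and 139 CPM. The gates of Sox5 myeloid cells were unlike in other ways: cholangiocyte markers summed to 4075 and 26 CPM, and macrophage markers to 5984 and 3039 CPM. In its 34 and 564 cells without a UMI of Krt8, Krt18 or Spp1, Nr1h3 stood at 34.3 and 467 CPM. The part of Kupffer cell transcripts in the Sox5 gate was not tested.

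The genes of the efflux pumps differed less than Nr1h3 or in the other direction. Abca1, the pump that loads apolipoprotein A-I, was lower in Crtc2-/- Kupffer cells, at 729 CPM (interval 652 to 811) and 302 CPM (282 to 322), 0.414 times as much (0.364 to 0.471). It was also lower in endothelial cells, at 436 and 248 CPM, and in Sox5 myeloid cells, at 75.6 and 34.9 CPM. In non-Kupffer macrophages it was level, at 229 CPM in each library, with a ratio interval from 0.938 to 1.06. Abcg1, which exports cholesterol to high-density lipoprotein, stood at 254 and 342 CPM in non-Kupffer macrophages, 344 and 481 CPM in Sox5 myeloid cells and 319 and 308 CPM in Kupffer cells. Free hepatocyte RNA was 0.563% and 0.610% of the Kupffer gate, which in the Crtc2+/+ library rests on 30 cells. Neutrophil markers summed to 92.5 and 1257 CPM in the Kupffer gate, and their part in its values was not tested. The Kupffer gate held 41 and 537 cells where those meeting another lineage's gate or the Sox5 gate were kept. Nr1h3 then gave 227 and 385 CPM there and Abca1 750.3 and 349 CPM. The non-Kupffer macrophages then gave 14.3 and 293 CPM of Nr1h3, and Abca1 and Npc2 passed 1.5-fold there as well, at 223 and 130.3 CPM and at 1280.2 and 811 CPM. Those gates also hold the Sox5 cells rich in C1q transcripts.

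**Figure D5:**
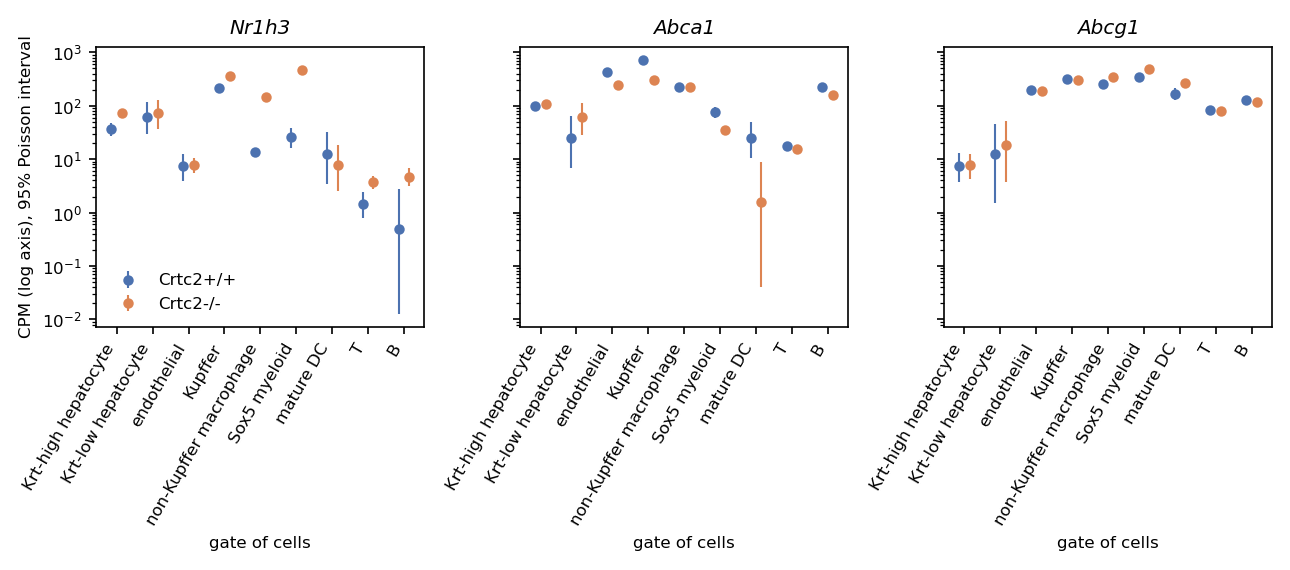
CPM (vertical axis, logarithmic) of Nr1h3, Abca1 and Abcg1 in the 9 gates, 1 point per library with its 95% Poisson interval. Nr1h3 lies at 13.9 and 147 CPM in non-Kupffer macrophages and at 25.6 and 465 CPM in Sox5 myeloid cells, whereas Abca1 lies at 729 and 302 CPM in Kupffer cells.

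Kupffer cells held more Nr1h3 than the other macrophages of their own library, with log2 ratios of 3.23 in the Crtc2+/+ and 1.21 in the Crtc2-/- library, and more Insig1, with 0.78 and 0.61. In these contrasts 8.58% and 5.08% of all genes were at least 1.5-fold higher in Kupffer cells, and 10.5% and 3.37% lower. Abca1 was higher by that rule in the Crtc2+/+ library only, with log2 ratios of 1.63 and 0.39, and the difference between the libraries was not tested. Across the libraries, 8.38% of genes in the Kupffer gate were higher and 5.80% lower, and of the 25 genes of the list that passed 2 were higher (Nr1h3 and Stard4, the latter from 1 and 32 UMIs with an interval that includes 1) and 1 lower (Abca1).

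Sox5 myeloid cells showed higher Hmgcs1, Idi1 and Srebf2 and lower Npc2 in the Crtc2-/- library, while the median log2 ratio of the synthesis genes was -0.03. Of all genes 11.0% were higher and 16.1% lower there, and 4 of the 28 listed genes that passed were higher and 2 lower. Hmgcs1 stood at 16.0 and 30.7 CPM, Idi1 at 6.39 and 19.4 CPM and Srebf2 at 29.8 and 52.9 CPM. Of the other early enzymes Acat2 stood at 6.39 and 5.76 CPM, Mvk at 4.26 and 3.66 CPM, Pmvk at 23.44 and 21.46 CPM and Mvd at 5.33 and 8.37 CPM, with ratio intervals that include 1. In the cells without epithelial UMIs Hmgcs1 was level, at 27.4 and 27.6 CPM. Npc2 gave 926 CPM (865 to 989) and 341 CPM (326 to 356), 0.368 times as much (0.340 to 0.399), and 1178 and 337 CPM in the cells without epithelial UMIs. In Kupffer cells Npc2 stood at 1226 and 1013 CPM and in non-Kupffer macrophages at 1300.4 and 1266 CPM. Soat1, highest in macrophages of both libraries, stood at 247 and 190.1 CPM in Kupffer cells and 194 and 177 CPM in non-Kupffer macrophages.

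With 10 CPM added, endothelial cells, T cells and B cells held few listed genes past 1.5-fold. In endothelial cells 5.04% of all genes were higher and 6.77% lower, and of the 26 listed genes that passed only Abca1, already described, was lower and none higher. Stard4 was highest in this gate in both libraries, at 58.3 and 65.0 CPM, with intervals that overlapped those of the next gate. In T cells 2.09% of genes were higher and 1.43% lower. On that scale none of the 30 listed genes passed 1.5-fold in either direction. With 1 CPM added, 3 were higher and none lower. At the depth of this gate the ratio interval left out 1 for 17 of the 30 genes, 14 higher and 3 lower. Those higher included Hmgcs1 (11.7 and 16.2 CPM), Idi1 (5.17 and 10.9 CPM), Sqle (1.06 and 4.38 CPM) and Nr1h3 (1.48 and 3.72 CPM). Those lower were Sc5d (32.1 and 26.2 CPM), Soat1 (52.9 and 45.7 CPM) and Npc1 (24.8 and 17.8 CPM). T cells with a UMI of Mki67 or Top2a made up 10.7% and 16.9%, and the median synthesis log2 ratio was 0.15 with them and 0.10 without them. In B cells 3.44% of genes were higher and 1.01% lower, and 2 of the 30 listed genes were higher and none lower: Fdps, at 16.9 and 31.0 CPM, and Insig1, at 4.46 and 13.7 CPM. Abca1 gave 226 and 157 CPM in B cells, a log2 ratio of -0.49. Lbr was highest in T cells of both libraries, at 97.0 and 106 CPM.

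The other genes of the pathway were 32 on a list of uptake, lysosomal, bile acid and oxysterol genes. Of the 25 that passed in the Krt-high gate 2 were higher and 8 lower in Crtc2-/- cells, beside 11.3% and 17.0% of all genes, and their median log2 ratio was -0.022. Lrp1, a receptor for remnant lipoproteins, stood at 47.3 and 84.2 CPM. Cd36, a scavenger receptor that takes up fatty acids and oxidised lipoprotein, stood at 119 and 30.1 CPM in the Krt-high gate. In the Krt-low gate it stood at 294 and 24.2 CPM, a difference that was gone (log2 ratio 0.073) where cells meeting another lineage's gate were kept. Cyp7b1, an oxysterol hydroxylase of bile acid synthesis, stood at 56.6 and 10.2 CPM, and Lipa, the lysosomal lipase that frees cholesterol from its esters, at 157 and 77.1 CPM. Gramd1b, a carrier of cholesterol from the plasma membrane, stood at 64.6 and 19.4 CPM, but was higher (log2 ratio 0.89) among cells low in biliary markers. Lrpap1 and Nceh1 were lower as well, with log2 ratios of -1.08 and -0.62. In the Krt-low gate 4 of the 32 passed, 0 higher and 4 lower, beside 30.2% and 23.6% of all genes. These were Cd36, Lipa, Lrpap1 and Tmem97. Tmem97 stood at 132 and 36.2 CPM there, from 21 and 6 UMIs, but at 25.3 and 44.9 CPM in the Krt-high gate.

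In the other gates the uptake and export genes went separate ways. In endothelial cells Cd36 was higher in the Crtc2-/- library, at 451 and 1178 CPM, as was the scavenger receptor Msr1, at 74.6 and 277 CPM, while the lipoprotein receptor Scarb1 was lower, at 348 and 174 CPM. In non-Kupffer macrophages 5 of 27 were higher and 3 lower, beside 4.16% and 3.74% of all genes. Pltp, the phospholipid transfer protein, stood at 45.1 and 245 CPM, Lrp1 at 77.8 and 218 CPM and Scarb1 at 39.7 and 98.0 CPM. Mylip, which marks lipoprotein receptors for degradation, was lower, at 199 and 110 CPM. In Sox5 myeloid cells 7 of 25 were higher and 5 lower, beside 11.0% and 16.1% of all genes. Pltp stood there at 34.1 and 599 CPM and Mylip at 154 and 57.4 CPM. Ch25h, which makes an oxysterol, was counted 47 times in Crtc2+/+ and 0 times in Crtc2-/- Sox5 myeloid cells, at least 95.7-fold lower against a floor of 3 counts in the library. In Kupffer cells 2 of 24 were higher and 4 lower, beside 8.38% and 5.80% of all genes. The higher ones, Rnf139 (4 and 61 UMIs) and Tmem97 (2 and 41 UMIs), named after their values were seen, had ratio intervals that include 1, and the lower ones held Cd36 at 539 and 202 CPM and Mylip at 176 and 101 CPM. In T cells none of 26 passed 1.5-fold with 10 CPM added. In B cells 2 of 26 were higher and none lower (3.44% and 1.01% of all genes). In mature DC 2 of 9 were higher and 3 lower (8.55% and 14.0%), with Mylip at 56.0 and 136 CPM.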

How the data were processed

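The deposited files hold raw UMI counts per gene and barcode from tumour cell suspensions, 1 table per genotype, made by the authors with Cell Ranger 7.1.0 per the file headers. Build mm10, Cell Ranger and Seurat are named in the submitters' processing notes. The annotation and the counting of intronic reads are unknown here. Libraries were 10x Genomics 3′ libraries, per the labels' protocols, with 81487425 and 78040008 UMIs. No barcode had fewer than 501 UMIs.

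Barcodes were kept with at least 500 UMIs, 250 genes and at most 20% mitochondrial UMIs (9612 and 9174). Scrublet (scanpy 1.11.5, expected rate 0.8% per 1000 cells, genes in at least 3 cells) called 263 (2.74%) and 273 (2.98%) doublets, below the expected 7.69% and 7.34%, and these were removed. Cells meeting the gates of 2 lineages, or of macrophages and mature DC, were left out, and cells in both the Sox5 and macrophage gates went to Sox5. UMIs were summed per library and gate. Poisson intervals of a sum and conditional intervals of a ratio are exact, at 95%. Ratios needed at least 30 cells per library. Intervals came from scipy 1.17.1, tables from pandas 2.3.3 with numpy 2.4.6 and figures from matplotlib 3.10.9 (Python 3.11.15), and the ratios were tested on simulated data.

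All 30 genes were accounted for. Those past 1.5-fold with a ratio interval that excludes 1 were named per gate, and others where a group needed them. Genes of the second list also needed 50 CPM in a library, and not every gene that met this is named in every gate. Stard5 in Sox5 myeloid cells, at 47.9 and 139 CPM, is an example. The genes and lists were chosen with earlier results of these data known. Alternatives varied the gates, doublets, filters, added CPM, averaging, centring and hepatocyte RNA, and 8 were added after seeing the data, splitting gates by other cells' markers, mitochondrial share or cycling.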

Additional observations from a re-analysis of the deposited data

Results flagged for a closer look

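Members of the list, 3 in number, passed 1.5-fold in opposite directions in different gates, with ratio intervals that exclude 1, and whether the gates differ was not tested. Log2 ratios are Crtc2-/- over Crtc2+/+. Krt-high and Krt-low hepatocytes here name the gates, and the Krt-high gate also held biliary transcripts. Cyp51, the lanosterol demethylase, stood at 1.52 in Krt-high hepatocytes and -0.98 in mature DC. Soat1, the cholesterol esterifying enzyme, stood at -0.60 in Krt-high and 1.6 in Krt-low hepatocytes, the latter from 4 and 16 UMIs, but both directions turned with scaled gates, to 0.061 and -1.44. Npc2, the lysosomal carrier, stood at 0.87 in Krt-low hepatocytes and 0.64 in mature DC but at -1.42 in Sox5 myeloid cells, and the Krt-low value became -0.84 with cells meeting another lineage's gate kept.

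Among the other pathway genes, Cd36 stood at 1.37 in endothelial cells but at -1.68 in Krt-high hepatocytes, -3.16 in Krt-low hepatocytes, -1.37 in Kupffer cells, -0.74 in non-Kupffer macrophages and -1.37 in Sox5 myeloid cells, and the Krt-low value became 0.073 with those cells kept. Scarb1 stood at -0.96 in endothelial cells, 1.12 in non-Kupffer macrophages and 1.45 in Sox5 myeloid cells. Lipa stood at -0.94 and -1.67 in Krt-high and Krt-low hepatocytes and at 1.09 in Sox5 myeloid cells. Nceh1, a cholesterol ester hydrolase, stood at -0.62 in Krt-high hepatocytes, -0.59 in Kupffer cells and 0.84 in Sox5 myeloid cells. Mylip stood at -0.75 in Kupffer cells, -0.80 in non-Kupffer macrophages, -1.29 in Sox5 myeloid cells and 1.15 in mature DC. Cyp27a1, a sterol hydroxylase, stood at -0.88 in Sox5 myeloid cells and 0.96 in mature DC.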

How the results depend on the processing

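No paired analysis was possible because each genotype had 1 library. The median log2 ratio of the synthesis genes in the Krt-high gate, 0.86, lay between 0.47 (with 50 CPM added) and 1.49 over all alternatives run. In the Krt-low gate the median of 2.09 became 0.48 with cells meeting another lineage's gate kept and 0.64 without the filter on counts. The other 158 recomputed medians stayed within the counting intervals of their genes, which are wide in small gates: that of mature DC, 0.16, ran from -0.12 with at least 50 UMIs to 0.64 by a mean over cells.

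Counts of listed genes higher by 1.5-fold depended on the settings. In the Krt-high gate the 19 became 7 with 50 CPM added and 10 at 2-fold, and reached 24 among cells rich in hepatocyte transcripts. In the Krt-low gate the 6 became 2 with at least 50 UMIs, 10 with scaled gates and 17 without a filter. Elsewhere the counts ran from 0 to 8 in B cells, 0 to 7 in Kupffer cells (4 with gates as stated), 1 to 6 in Sox5 myeloid cells, 0 to 3 in T and endothelial cells, 2 to 7 in mature DC and 1 to 3 in non-Kupffer macrophages. Counts of lower genes ran from 0 to 2 in both hepatocyte gates and non-Kupffer macrophages, 1 to 4 in Sox5 myeloid cells, 0 to 5 in mature DC, and 0 to 1 in endothelial and B cells. They stayed at 1 in Kupffer and 0 in T cells.

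Single genes turned direction in 21 recomputed values, while 1237 stayed within the counting interval of the ratio and 262 left it in the same direction, and the cause was not tested. Between libraries, with gates as stated, Npc2 and Cd36 became -0.84 and 0.073 in the Krt-low gate. With scaled gates Soat1 became 0.061 in the Krt-high and -1.44 in the Krt-low gate. By a mean over cells Abcg1 became -0.015 in mature DC. Among cells high in biliary markers Soat1 became 0.21, and among those low in them Gramd1b became 0.89. Among cells rich in hepatocyte transcripts Gramd1b became 0.35 in the Krt-high gate and Soat1 0 in the Krt-low gate. Krt-high over Krt-low in the Crtc2+/+ library, Abca1 became -0.15 with gates as stated, scaled gates gave Ebp 0.027, Hmgcs1 -0.33, Nr1h3 0.091 and Srebf2 -0.11, centring gave Fdft1 -0.082 and Pmvk -0.038, and a mean over cells gave Npc2 0.10 and Soat1 0.36. In the Crtc2-/- library scaled gates gave Abca1 -0.10 and Msmo1 -0.14, and a mean over cells gave Cyp51 -0.23.

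The limit on mitochondrial share in the Krt-low gate, and both limits together in either hepatocyte gate, left under 30 cells in a library and gave no value. Depth limits the Krt-low gate most, where 21 of the 30 genes had fewer than 20 UMIs over both libraries.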
